A study of Mus musculus with 3 samples.

Results

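Genes of the primary cilium were examined in the genital tubercle, which gives rise to the external genitalia. They were 54 genes listed as cilium genes required for hedgehog signalling, with regulators of the pathway such as Sufu among them. Whether the pathway needs each of them was not tested here. Every probe set annotated to exactly 1 of their symbols was taken. The annotation gave such a probe set to 51 of the 54 genes, 87 of the 45037 probe sets analysed. Arl6, Arl13b and Rpgrip1l had none and were not analysed here, and 1 further probe set, annotated to both Ttbk2 and Cdan1, was not used. Each of 3 mouse embryos gave RNA for 1 Affymetrix array, with no pooling, and the labels put them at embryonic day 14, Theiler stage 22, and call them male. Per the labels, FVB/N females were mated to males carrying the transgene SMAA/EYFP, which encodes a yellow fluorescent protein, and its expression guided the dissection in all 3. The labels differ only in the landmark, with fingers visible in replicate 3 and footplate borders indented in replicates 1 and 2. They do not say whether the embryos were littermates, so differences between samples may mix animal, dissection and amplification.

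The primary cilium is a single antenna on most vertebrate cells. Its parts are carried up by the intraflagellar transport complex IFT-B with kinesin-2 and down by IFT-A with dynein-2, while the BBSome, named for Bardet-Biedl syndrome, moves membrane proteins out, and a transition zone at the base sets what may enter. Vertebrate hedgehog signalling runs through this organelle, where Smo gathers and where the Gli factors are processed, and in the genital tubercle the ligand from the urethral epithelium drives outgrowth.

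Signals are the deposited linear intensities, in arbitrary units. A probe set counted as above background where it passed the 95th percentile of 83 olfactory, vomeronasal and taste receptor probe sets of the same sample, which was 197 in replicate 3, 135 in replicate 1 and 251 in replicate 2. Markers of mesenchyme were above background in 3 of 3 samples for 7 of 7 genes and those of epithelium for 8 of 9. The male label did not hold equally for all samples, since Xist, the RNA of the inactive X chromosome, read 61883 in replicate 3, 8.05 in replicate 1 and 118 in replicate 2, and the Y-linked Eif2s3y read 37.9 in replicate 3, 4384 in replicate 1 and 3738 in replicate 2. The sex label of replicate 3 is therefore in doubt, and the main counts are also given without it. Summed signals of 6 liver markers were 9252 in replicate 3, 110988 in replicate 1 and 52095 in replicate 2, and those of 8 skeletal muscle markers were 2964, 24113 and 7039 in the same order.

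Nearly the whole cilium list was detected. Of the 51 genes measured, 49 (96.1%) had their brightest probe set above background in 3 of 3 samples, beside 11020 of 18193 genes on the array (60.6%). Leaving out replicate 3 gave 49 of 51, beside 62.3% of all genes. Over all probe sets of these genes 68 of 87 (78.2%) were above background in 3 of 3 samples, beside 48.1% of all probe sets. The 2 genes that missed the line are transition zone genes, each with 1 probe set. Tmem67, a transmembrane protein mutated in Meckel syndrome, read 57.5 in replicate 3, 37 in replicate 1 and 148 in replicate 2, below background in every sample. Tctn1, one of the tectonic proteins, read 337 in replicate 3, 385 in replicate 1 and 244 in replicate 2, below background in replicate 2. A probe set below background says nothing of transcripts it does not reach.

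As a group the 49 detected genes did not stand further above background than detected genes at large. The lowest of the 3 ratios of signal to background had a median of 6.08 over these genes, with a range of 1.64 to 87.0, beside a median of 7.86 over all 11020 detected genes. It passed 10 for 15 of the 49 (30.6%), beside 43.2% of all detected genes, and lay under 2 for 3 of them (6.12%), beside 15.1%. Probe sets differ in how well they bind, so these margins describe probe sets and do not rank the transcript levels of different genes.

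**Figure D1:**
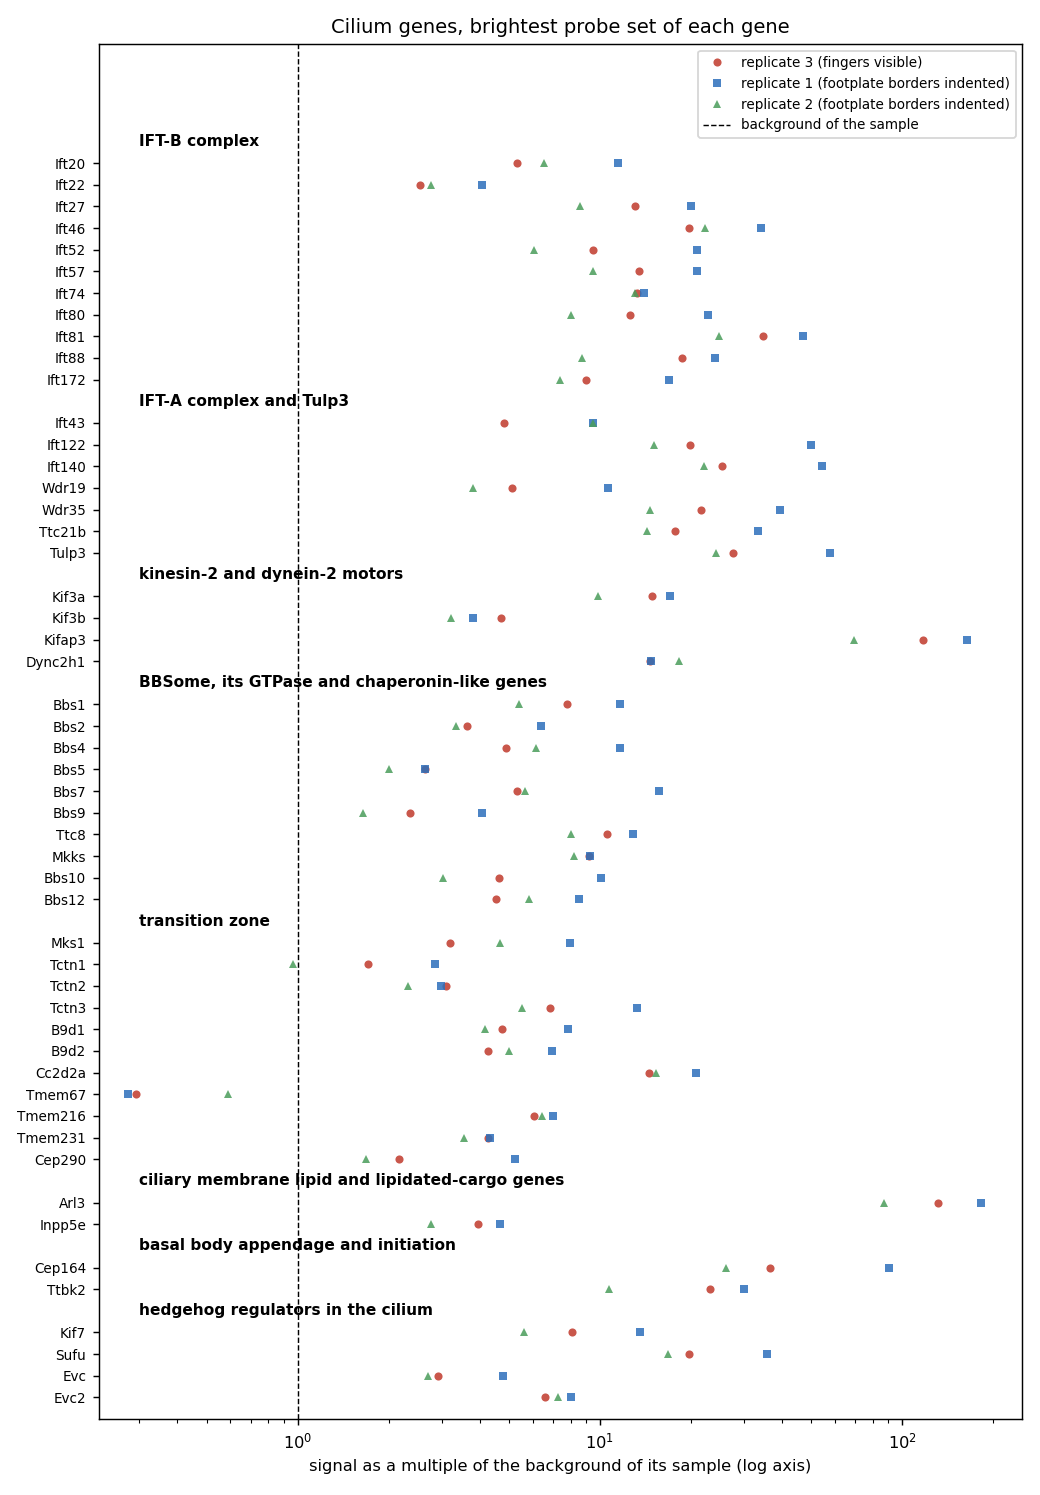
Signal of the brightest probe set of each of 51 cilium genes as a multiple of the background of its sample (log axis), by role, with 1 point per sample and the background as a dashed line. Only Tmem67 lies left of the line in every sample and Tctn1 in replicate 2, and the background that divides the signals is lowest in replicate 1, at 135.

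Other genes of the organelle were detected to a like extent, and genes of motile cilia were not. Of 44 further primary cilium genes, among them IFT, BBSome, dynein-2 and basal body genes outside the main list, 42 were measured and 40 (95.2%) were above background in 3 of 3 samples, all but Ttc30a2 and Nphp4. Of 25 genes of motile cilia, the beating cilia of airway and oviduct, 24 were measured and 3 (12.5%) were above background in 3 of 3 samples, while 17 were above it in none. Foxj1, the transcription factor that switches on the motile programme, read 86.4 in replicate 3, 113 in replicate 1 and 104 in replicate 2, below background in each. The 3 that passed were named after their values were seen: Tekt2 read 2228 in replicate 3, 1394 in replicate 1 and 1992 in replicate 2, Ccdc39 825 in replicate 3, 605 in replicate 1 and 723 in replicate 2 and Rsph9 427 in replicate 3, 338 in replicate 1 and 407 in replicate 2. Hedgehog genes outside the cilium list were above background for 11 of 11 measured. Ptch1, the receptor and a target of the pathway, read 37801 in replicate 3, 26712 in replicate 1 and 39066 in replicate 2, and the target Gli1 726 in replicate 3, 551 in replicate 1 and 974 in replicate 2.

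A sequence feature that the list was not chosen for was counted in the promoters, because ciliary genes are known as targets of Rfx transcription factors, which bind the X-box, 2 inverted half-sites. The RefSeq promoter table of build GRCm38.p6, from 250 bases before to 50 after each start, held 55 promoters of 50 of the 54 genes. The half-site GTTGCC, read on both strands, was in 21 of the 55 (38.2%), beside 12.5% of all 32851 promoters and 12.4% of the 11435 promoters of genes above background in 3 of 3 samples. The paired form, GTNNCC and then any 2 bases and then GGNNAC, which reads the same on both strands, was in 11 of the 55, in 11 genes (22.0% of 50), beside 2.16% of all genes in the table. By promoter it was in 1.88% of all, 1.96% of those of protein-coding genes and 2.14% of those of genes detected here. A half-site can lie within a paired form, so the counts overlap. Base composition was not matched, and the median GC content was 59.7% in the cilium promoters, 61.3% in those of detected genes and 52.7% in all.

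The 6 paired forms that hold the half-site GTTGCC exactly are shown with up to 8 bases on either side, 5′ to 3′ on the strand of the gene. Their other half-site was not used in the choice, so forms not shown can be as close to a full X-box. Capitals mark the paired form.
Bbs1: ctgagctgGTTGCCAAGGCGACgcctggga
Bbs7: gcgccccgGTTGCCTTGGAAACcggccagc
Ift57: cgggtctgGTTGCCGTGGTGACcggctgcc
Mks1: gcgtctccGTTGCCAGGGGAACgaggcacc
Tctn1: ctgtgactGTTGCCCGGGCAAC
Tmem231: cgccgtcgGTTGCCGTGGAGACtcggcgct

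On the minus strand of GRCm38.p6 these lie at chr19:4906605-4906634 (Bbs1), chr3:36613489-36613518 (Bbs7), chr5:122264411-122264432 (Tctn1) and chr8:111933781-111933810 (Tmem231). On the plus strand they lie at chr16:49699199-49699228 (Ift57) and chr11:87853183-87853212 (Mks1). The form in Tctn1 is the 1 with both half-sites exact and ends with the window. The other paired forms were in Bbs4, Tctn2, Tmem216, Wdr19 and, in 2 places, Ift22. By role, 5 of 13 transition zone promoters held one (38.5%), 3 of 12 of the BBSome group (25.0%), 2 of 9 of IFT-B (22.2%), 1 of 6 of IFT-A with Tulp3, and 0 of 15 in the other roles. The centres of the 12 forms lay from 115 bases before to 43 bases after the start, 11 of them within 100 bases, beside 142 of 253 (56.1%) in the promoters of detected genes. Further primary cilium genes had the paired form in 8 of 49 promoters (16.3%), motile cilium genes in 3 of 24 (12.5%) and hedgehog genes in 0 of 9.

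A match is a description of letters and shows no binding. Tctn1, whose probe set was below background in replicate 2, holds the paired form too. The 10 detected genes with the form had a median SD between samples of 0.27 on the log2 scale, and the 36 detected genes with a promoter in the table and no form had 0.30, inside the range of 0.17 to 0.57 over those 10. Of 6 Rfx genes, 4 passed background in every sample. Rfx3, a known regulator of cilium formation in mouse, read 727 in replicate 3, 717 in replicate 1 and 644 in replicate 2, and Rfx1 1225 in replicate 3, 1715 in replicate 1 and 889 in replicate 2. Rfx7 read 17609 in replicate 3, 18996 in replicate 1 and 16390.3 in replicate 2, and Rfx5, known for MHC class II genes, 11816 in replicate 3, 6206 in replicate 1 and 3806 in replicate 2. Rfx2 and Rfx4 were below background in every sample.

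**Figure D2:**
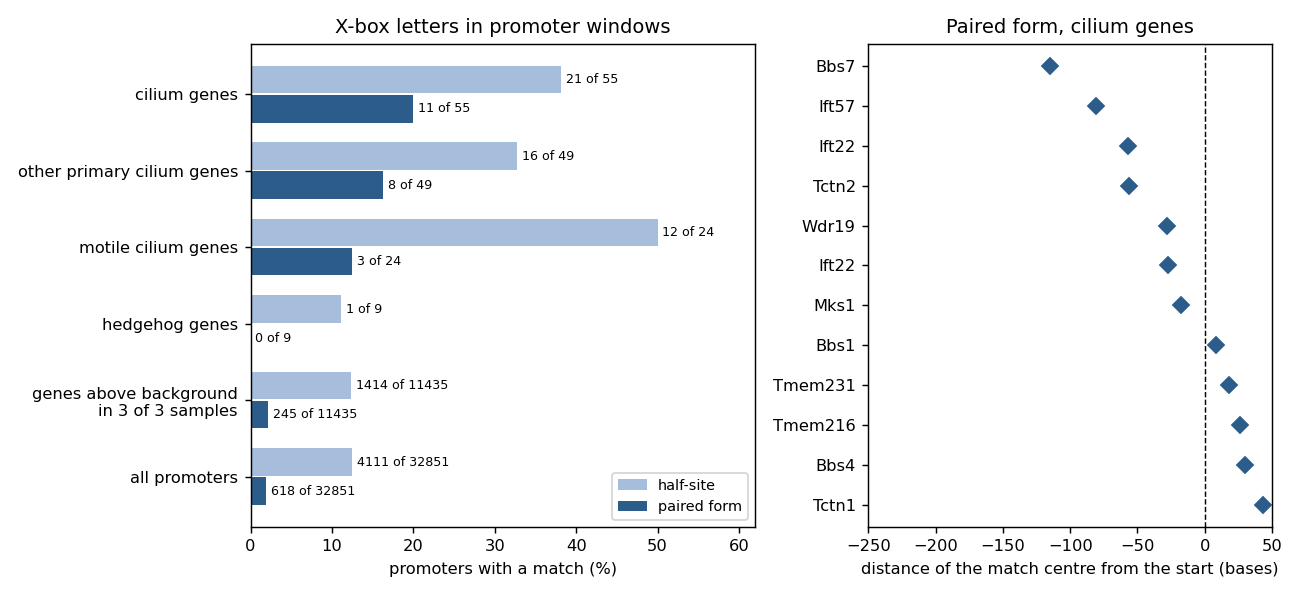
Left, percent of promoter windows with the half-site (pale bars) or the paired form (dark bars), with counts of promoters; right, distance in bases of the centre of each paired form from the start of its gene. The paired form is in 11 of 55 promoters of the listed cilium genes and in 618 of 32851 promoters in all, and 11 of the 12 matches lie within 100 bases of the start.

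The 11 IFT-B genes, which carry tubulin and other cargo towards the tip, each passed background in all 3 samples. Ift81, whose protein binds tubulin together with that of Ift74, read 6819 in replicate 3, 6349.6 in replicate 1 and 6212 in replicate 2, a mean of 6460.2 ± 319 (SD, n = 3). Ift46 read 3892 in replicate 3, 4608 in replicate 1 and 5614 in replicate 2. Ift88, whose loss in mouse removes cilia, read 3674 in replicate 3, 3241 in replicate 1 and 2189.8 in replicate 2, lowest in replicate 2. Ift52, a core subunit, read 1872 in replicate 3, 2818 in replicate 1 and 1527 in replicate 2, with replicate 1 above the others. Mean signals of the other IFT-B genes ran from 582 for Ift22 to 2623 for Ift57, with Ift20, Ift27, Ift74, Ift80 and Ift172 in between.

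All 7 genes of IFT-A and its adaptor Tulp3 were above background in 3 of 3 samples. Tulp3, which links IFT-A to receptors of the ciliary membrane, read 5448 in replicate 3, 7761 in replicate 1 and 6082 in replicate 2. Ift140, a core subunit, read 4989 in replicate 3, 7327 in replicate 1 and 5555 in replicate 2. Ift122 read 3913 in replicate 3, 6721 in replicate 1 and 3788 in replicate 2, so replicate 1 again stood above the others. Ift43 had another order, with 953 in replicate 3, 1282 in replicate 1 and 2389 in replicate 2. Wdr35, Wdr19 and Ttc21b, the remaining subunits, had mean signals of 4413 ± 817, 1132 ± 264 and 3859 ± 544 (SD, n = 3).

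The motors were above background for 4 of 4 genes. Kifap3, the subunit that ties kinesin-2 to cargo, read 23181 in replicate 3, 22028 in replicate 1 and 17349.5 in replicate 2, lowest in replicate 2. Dync2h1, the heavy chain of dynein-2, read 2899 in replicate 3, 1987 in replicate 1 and 4604 in replicate 2, highest there. The kinesin-2 motor genes Kif3a and Kif3b averaged 2575 ± 332 and 749 ± 212 (SD, n = 3).

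In the BBSome group 10 of 10 genes passed background in every sample. Ttc8, a BBSome subunit also called Bbs8, read 2089.6 in replicate 3, 1737 in replicate 1 and 2012 in replicate 2, close together in all. Mkks, a chaperonin-like protein that helps the BBSome assemble, read 1822 in replicate 3, 1252 in replicate 1 and 2067 in replicate 2. Bbs7 read 1049.6 in replicate 3, 2120.4 in replicate 1 and 1416 in replicate 2, highest in replicate 1. Bbs5 and Bbs9 were the nearest to background, at 521 in replicate 3, 356 in replicate 1 and 502 in replicate 2 and at 464 in replicate 3, 548 in replicate 1 and 413 in replicate 2. Bbs1, Bbs2 and Bbs4 of the BBSome averaged 1487 ± 116, 806 ± 79.2 and 1361 ± 340.1, and the chaperonin-like Bbs10 and Bbs12 1009.8 ± 309 and 1169 ± 283 (SD, n = 3).

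In the transition zone 9 of 11 genes passed background in every sample. Cc2d2a, a membrane-bound scaffold of this zone, read 2859 in replicate 3, 2798 in replicate 1 and 3841 in replicate 2. Tctn3 read 1354 in replicate 3, 1789.6 in replicate 1 and 1393 in replicate 2, and B9d1, whose protein carries a B9 domain as do those of B9d2 and Mks1, read 937 in replicate 3, 1054 in replicate 1 and 1045 in replicate 2. Cep290, which links the microtubules of this zone to the membrane, read 428 in replicate 3, 706 in replicate 1 and 423 in replicate 2, so it passed the background of replicate 2 by under 2-fold. Mks1 read 629 in replicate 3, 1072 in replicate 1 and 1178 in replicate 2, with replicate 3 below both others. Tctn2, B9d2, Tmem216 and Tmem231 averaged 531 ± 113, 1011 ± 219, 1252 ± 344 and 774 ± 166 (SD, n = 3).

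In the remaining roles 8 of 8 genes passed background in every sample. Arl3, the GTPase that releases lipid-modified cargo inside the cilium, read 25964 in replicate 3, 24587 in replicate 1 and 21851 in replicate 2, and Inpp5e, the phosphatase that keeps the lipid composition of the ciliary membrane, 779.7 in replicate 3, 632 in replicate 1 and 696 in replicate 2. Cep164, which builds the appendages that dock the basal body, read 7236 in replicate 3, 12172 in replicate 1 and 6560.4 in replicate 2. Ttbk2, the kinase that starts cilium growth there, read 4569.9 in replicate 3, 4031 in replicate 1 and 2699.7 in replicate 2, with replicate 2 lowest. Of the hedgehog regulators, Sufu, which holds Gli factors inactive, read 3878 in replicate 3, 4830.5 in replicate 1 and 4235 in replicate 2. Kif7, a kinesin of the ciliary tip that organises Gli and Sufu, read 1597 in replicate 3, 1824 in replicate 1 and 1407 in replicate 2. Evc, a membrane partner of Smo, read 574 in replicate 3, 645 in replicate 1 and 679 in replicate 2, close together in all. Its partner Evc2 averaged 1403 ± 384 (SD, n = 3).

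Most of the 49 detected genes stayed within 2-fold over the 3 samples. For comparison of samples, log2 signals were aligned on the median of detected probe sets. The SD over the samples had a median of 0.295 on that scale, from 0.11 to 0.60, beside 0.330 over all 11020 detected genes, and 30 of the 49 lay below that median. Aligned on the median of every probe set instead, the medians were 0.476 for the cilium genes and 0.487 for all detected genes. Their order turned with no alignment (0.302, beside 0.295), without replicate 2 (0.294, beside 0.250) and without replicate 3 (0.360, beside 0.335), so cilium genes are not shown to vary less than others. The smallest SDs were those of Ttc8 (0.11), Evc (0.13), B9d1 (0.14), Cc2d2a (0.15) and Ift81 (0.15), and the largest those of Ift43 (0.60), Cep164 (0.58), Bbs7 (0.57), Ift122 (0.56) and Ift52 (0.56), all with n = 3. By role the median SD was 0.54 for the 2 basal body genes, 0.38 for IFT-A with Tulp3, 0.35 for the motors, 0.29 for IFT-B and for the BBSome group, 0.26 for the transition zone, 0.25 for the hedgehog regulators and 0.19 for Arl3 and Inpp5e. In whole tissue fewer ciliated cells and less RNA per cell cannot be told apart.

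On the brightest probe sets, differences over 2-fold were few. Replicate 1 differed from replicate 2 by more than that in 4 of the 49 genes (8.16%), beside 12.3% of all detected genes, and was higher in Bbs10, Ift52, Ift122 and Cep164. Replicate 3 differed from replicate 1 in 1 gene, Bbs7, which was lower in replicate 3 (2.04%, beside 7.68% of all), and from replicate 2 in 1 gene, Ift43, also lower in replicate 3 (2.04%, beside 7.27%). These are single samples, so no test goes with the counts. The 4 genes higher in replicate 1 passed 2-fold only after alignment. As deposited, the signals of each differed by under 2-fold, for Cep164 12172 in replicate 1 and 6560.4 in replicate 2. Those of Dync2h1, 1987 in replicate 1 and 4604 in replicate 2, differed by over 2-fold before alignment and not after it. Dimmer probe sets of the genes higher in replicate 1 did not all follow. Their log2 difference between replicates 1 and 2 was -0.64 for Ift122 and 0.07 for Bbs10. For Cep164 it was -2.38 in a probe set below background in replicate 1, and 0.82 in another below background in every sample. Over all 68 probe sets of cilium genes that passed background in every sample the counts were larger and the directions mixed. Replicate 1 differed from replicate 2 by over 2-fold in 7 of them (10.3%, beside 20.2% of all such probe sets), higher in 4 and lower in 3. Replicate 3 differed from replicate 1 in 5 (7.35%, beside 13.8%), higher in 4 and lower in 1. Replicate 3 differed from replicate 2 in 5 (7.35%, beside 9.89%), higher in 1 and lower in 4. Replicate 1 had the highest aligned value of the 3 in 28 of the 49 genes (57.1%), beside 55.6% of all detected genes, and replicate 2 the lowest in 25 (51.0%), beside 51.4%. Replicate 1 was above replicate 2 in 34 of the 49 with this alignment, in 28 with no alignment and in 43 with alignment on all probe sets, beside 72.3%, 57.2% and 89.6% of all detected genes. Replicate 1 was also the sample with the highest liver and skeletal muscle markers, and their part in these differences was not tested.

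**Figure D3:**
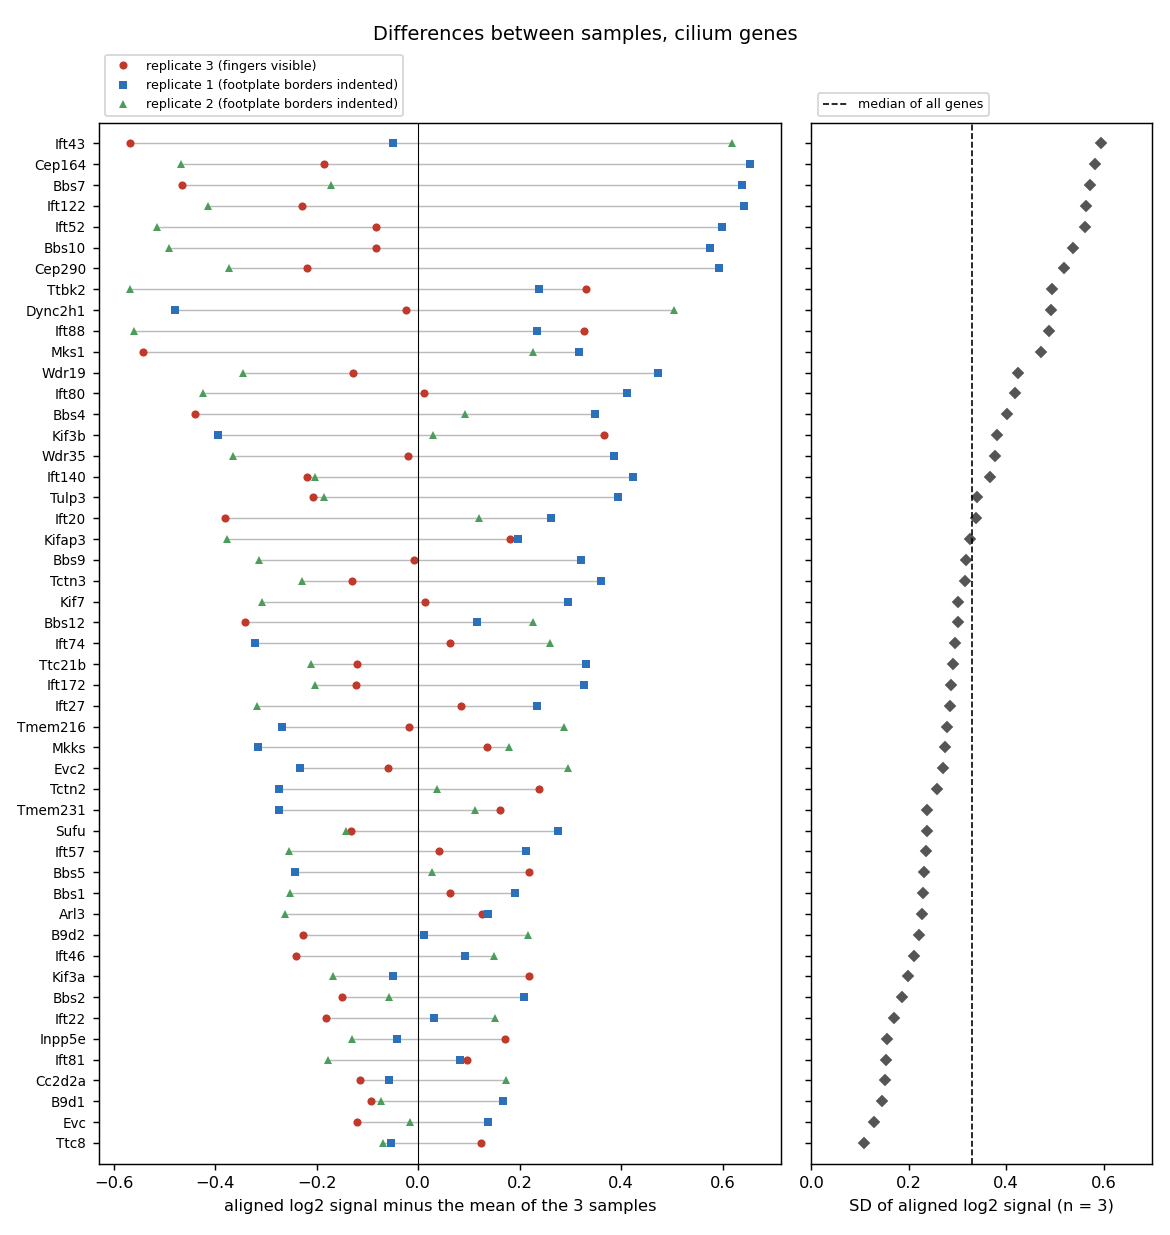
Left, aligned log2 signal of the brightest probe set of 49 detected cilium genes in each sample, minus the mean of the 3 samples, sorted by SD; right, the SD (n = 3) with the median of all detected genes, 0.330, as a dashed line. No gene passes an SD of 0.60, and replicate 1 is the highest sample in 28 genes.

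The landmark comparison set replicate 3, with fingers visible, against replicates 1 and 2. limma called 0 of the 78 probe sets of cilium genes fitted at a Benjamini-Hochberg adjusted p under 0.05, as it did 0 of all 29121 (0.00%), and the lowest adjusted p of a cilium probe set was 0.999998. At an unadjusted p under 0.05 it found 1 of the 78 (1.28%), beside 611 of all (2.10%). That 1 is a secondary probe set of Kif3b, which read 71.5 in replicate 3, 311 in replicate 1 and 368 in replicate 2, below background in replicate 3. It had a log2 difference of -2.22 ± 0.60 (SE). The brightest probe set of Kif3b read 926 in replicate 3, 514 in replicate 1 and 807 in replicate 2. Its difference of 0.55 ± 0.63 was smaller than its SE. The other Kif3b probe sets had -0.09 ± 0.60 and 0.05 ± 0.61, so only 1 probe set of this gene was far lower in replicate 3.

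On brightest probe sets 0 of the 49 genes had a landmark difference over 1 on the log2 scale, beside 442 of 11020 (4.01%). The differences ran from -0.85 for Ift43 to 0.55 for Kif3b with a median of -0.12, beside a median of -0.01 for all detected genes, and 19 of 49 (38.8%) were positive, beside 48.7%. Mks1 had -0.81 ± 0.60 and Bbs7 -0.70 ± 0.70. Among secondary probe sets above background in 3 of 3 samples, Ttc21b read 876 in replicate 3, 381 in replicate 1 and 451 in replicate 2 and had 1.10 ± 0.60, against -0.18 ± 0.64 on its brightest probe set. A probe set of Bbs4 read 327 in replicate 3, 479 in replicate 1 and 933 in replicate 2 and had -1.01 ± 0.68, against -0.66 ± 0.61 on its brightest. Differences over 1 were also fitted for 2 secondary probe sets that passed background in 1 sample only. That of Ift81 read 335 in replicate 3, 8.64 in replicate 1 and 220.3 in replicate 2 and had 2.97 ± 2.02, and that of Tctn3 read 160.4 in replicate 3, 16.1 in replicate 1 and 308 in replicate 2 and had 1.21 ± 1.85. With 1 residual degree of freedom, the spread of a probe set rests on replicates 1 and 2, and replicate 3 is taken to vary as they do. The fit then pulls this spread towards a value pooled over all fitted probe sets. The SEs are therefore not a probe set's own spread between replicates. In the secondary probe set of Ttc21b replicates 1 and 2 differed by only -0.01, and the SE was still 0.60. Landmark, sex and anything else that sets replicate 3 apart cannot be told apart.

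Probe sets of the same gene often disagreed about which sample was higher. Of 23 cilium genes with several probe sets, 11 (47.8%) had no probe set that missed background in any sample and 12 had some that passed, beside 30.7% and 48.2% of 9010 such genes on the array. In 14 genes at least 2 probe sets were above background in 3 of 3 samples. Between replicates 1 and 2, the brightest and dimmest of these pointed in opposite directions in 7 of the 14, beside 50.4% of 4758 genes on the array, and lay over 2-fold apart in 5 (35.7%), beside 35.6%. In all 7 the brightest was higher in replicate 1 and the dimmest lower, namely Bbs4, Ift80, Ift122, Kif3a, Kifap3, Ttc21b and Tulp3. In Ttc21b the dimmest differed by only -0.01 on the log2 scale, and these signs move with the alignment of the samples. The brightest of Kif3a differed by 0.12 after alignment, but as deposited it was lower in replicate 1 (2300.2) than in replicate 2 (2482). On the array 2014 genes had that pattern and 384 the opposite one.

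The widest gaps between brightest and dimmest probe set were in the motor genes Kifap3 and Kif3a. The dimmer probe set of Kifap3 read 798 in replicate 3, 382 in replicate 1 and 1404 in replicate 2, a log2 difference of -1.65 between replicates 1 and 2, where the brighter one had 0.57. The dimmest of 4 Kif3a probe sets read 722 in replicate 3, 333 in replicate 1 and 1590.0 in replicate 2, a difference of -2.03, where the brightest had 0.12 and read 2945 in replicate 3, 2300.2 in replicate 1 and 2482 in replicate 2. The other Kif3a probe sets had 0.29 and 0.005, so the dimmest stood alone. In the motor gene Kif3b the brightest had -0.42 and the dimmest that passed background in every sample -0.01. Differences between replicates 1 and 2 in Kifap3 and Kif3a therefore hold for a probe set and not for the gene.

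Control probe sets placed along 1 transcript differed between these samples as well. For β-actin the probe set at the 3′ end read 40306 in replicate 3, 24081 in replicate 1 and 64173 in replicate 2, and that at the 5′ end 9118 in replicate 3, 3262 in replicate 1 and 28990.3 in replicate 2. The log2 difference between replicates 1 and 2 was -1.19 at the 3′ end and -2.92 at the 5′ end. For Gapdh it was 1.15 at the 3′ end and 0.62 at the 5′ end. For 18S RNA the values in the same order were -2.31 and -2.43, and for pyruvate carboxylase 0.53 and -1.75. The transferrin receptor went the other way, with -0.46 at the 3′ end and 0.76 at the 5′ end. The 5′ signals of these last 2 transcripts were below background in some samples. RNA was amplified in 2 rounds, and where along their transcripts the cilium probe sets lie was not used here, so the part of transcript position in the disagreement was not tested.

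**Figure D4:**
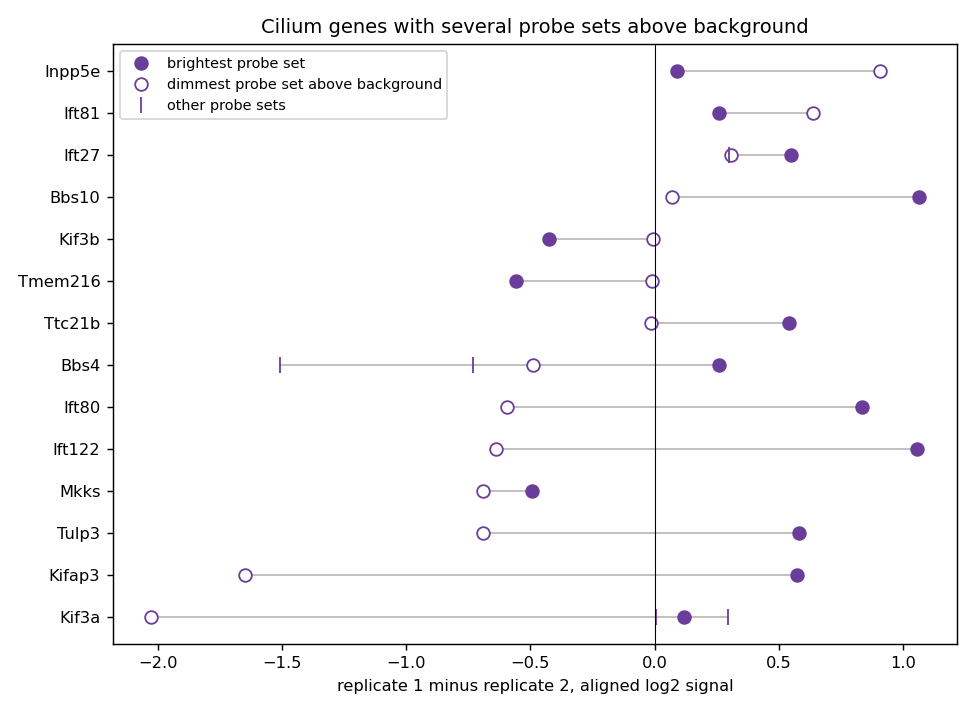
Aligned log2 signal of replicate 1 minus that of replicate 2 for each probe set above background in 3 of 3 samples, for 14 cilium genes with at least 2 of them; filled points are the brightest probe set of a gene, open points the dimmest and ticks the others. The brightest lies right of 0 and the dimmest left of it in 7 of the 14 genes.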

How the data were processed

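The values are linear intensities as deposited, 1 for every probe set in every sample. Per the submitters' processing notes the authors used GCOS, whose version and scaling are not known here. Per the labels RNA was amplified in 2 rounds. No column of per-sample values was left unmapped. Of 45101 probe sets 64 controls were set aside. The platform annotation gave exactly 1 symbol to 34945 probe sets, several to 932 and none to 9160. Of those with 1 symbol 34754 matched the RefSeq table of assembly GRCm38.p6 by Entrez identifier, and 0 symbols changed. The brightest probe set by mean signal stands for a gene.

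Signals were raised to a floor of 1 before log2. Medians of detected probe sets differed by 0.228 between samples, over the limit of 0.1, and were aligned. Pearson's r between samples was 0.903 to 0.944 over 21659 detected probe sets. Precision is limited by having 3 arrays. The landmark contrast used limma 3.58.1 (lmFit and eBayes, two-sided, Benjamini-Hochberg adjusted) in R 4.3.3 over 29121 probe sets, those that passed background in some sample. On simulated data the check was that planted differences were recovered in the median. How many true differences the contrast would call is not given here. Where nothing says the samples were separate litters, p-values measure only the spread between these samples.

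The members, gene lists and tests were chosen with earlier results of these data known. Values in every sample are given for genes not above background in 3 of 3 samples, the 2 brightest genes of each role, the 5 largest and 5 smallest SDs and secondary probe sets with a landmark difference over 1. Other genes given per sample were chosen after their values were seen. A planned comparison of protein sequences was not run. Further cell type lists were erythroid cells (5 of 6 genes above background in 3 of 3 samples), endothelium (6 of 7), liver (4 of 6) and skeletal muscle (5 of 8).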

Additional observations from a re-analysis of the deposited data

How the results depend on the processing

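No paired analysis was possible because the samples form 1 group. The count of detected cilium genes was 49 or 50 of 51 with the 90th or 99th percentile as background, with any probe set standing for a gene, and without each replicate in turn. The median SD of 0.295 stayed between 0.230 and 0.360 without each replicate in turn. It was 0.476 when samples were aligned on every probe set, beside 0.487 for all detected genes. With no alignment it was 0.302, beside 0.295 for all detected genes, and without replicate 2 or 3 it also lay above that of all detected genes. The landmark fit called 86 probe sets (22 higher, 64 lower) with that alignment and 1 where every sample had to pass background, and 0 of cilium genes in either. It called 0 with no alignment, quantile normalization, no filter, a variance trend or a floor of 32, where 349 to 1689 had an unadjusted p under 0.05. Genes with all probe sets above background numbered 10 with the 99th percentile, beside 11. With a gap of 1 to 3 bases the paired form was in 12 cilium genes and 3.49% of all promoters. The cause of these changes was not tested.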
